A study of Mus musculus with 6 samples.

Results

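The Notch receptors, ligands and HES genes described here are 10 genes picked by symbol: Notch1, Notch2, Notch3, Notch4, Dll1, Dll3, Jag1, Jag2, Hes1 and Hes6. All 10 have a row among the 24083 genes of the expression table. The RNA was polyadenylated RNA of mouse embryonic stem cells, the pluripotent cells of the early embryo in culture, grown on gelatin in serum medium with LIF, a cytokine that sustains self-renewal. There were 3 libraries of cells with wild-type Nanog (WT) and 3 of cells with the R153A form of NANOG, a homeodomain factor of pluripotent cells in which the label names an alanine in place of an arginine. The sources used here do not give how R153A was introduced, whether R153A cells were 1 clone, or whether libraries were separate cultures, so p-values measure only the spread between these libraries, which may be technical. A substitution of 1 residue cannot be checked in a table of expression values.

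Notch signalling passes between touching cells. A ligand of the Delta-like or Jagged family on one cell binds a Notch receptor on its neighbour, the receptor is cut first by ADAM proteases and then by gamma-secretase, and the freed intracellular part enters the nucleus, where it joins the DNA-binding protein RBPJ and a Mastermind coactivator. HES and HEY genes, which encode basic helix-loop-helix repressors, are its best known targets. In embryonic stem cells the pathway is known for its part in the exit towards neural and other lineages, and later in the embryo for the segmentation clock of presomitic mesoderm.

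In brief, 8 of the 10 genes were higher in R153A, Notch4 was lower, and Hes1 did not pass the test. The receptors went apart most. Notch3 and Notch4 stood at nearly equal levels in WT, and in R153A Notch3 was 4.08-fold higher and Notch4 7.12-fold lower in mean FPKM (fragments scaled to gene length and library size). All 4 ligands rose, and Hes6 rose 3.23-fold. Tests were made with limma on log2(FPKM + 1), a scale that understates the change of genes near or under 1 FPKM, with adjustment over the 11817 genes that reached 1 FPKM in at least 3 of the 6 libraries. With a call meaning an adjusted p below 0.05, 59.8% of all genes tested passed, 37.5% higher and 22.3% lower, so a call alone is common in this comparison. At least 2-fold changes on that scale were called for 8.29% of all genes and for 4 of the 10 Notch genes (Notch3, Notch4, Dll3 and Hes6). The 3 R153A values lay wholly outside the 3 WT values in 65.0% of all genes tested and in 9 of these 10. The median log2 fold change, R153A minus WT, was 0.65 over the 10 genes and 0.07 over all genes tested, and the median size regardless of sign was 0.80 and 0.24. All 10 genes passed the filter on low values, Dll3 only through its R153A libraries.

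Promoter windows are shown for the genes with at least 2-fold changes, the pair of receptors that moved apart and the pair of genes, Dll3 and Hes6, that rose from low or moderate levels. They come from RefSeq on build GRCm38.p6 and span 250 bases before to 50 bases after the annotated start. That build is not the mm9 named in the submitters' processing notes, and the expression table itself carries no coordinates. Of the 10 genes, 9 (all but Hes1) matched by symbol, with 11 windows in all, since Dll1 and Hes6 have 2 each. Capitals mark matches on either strand to 3 motifs: TGGGAA, the core bound by RBPJ, CACNAG, the N box bound by HES repressors, and CANNTG, the E box bound by other basic helix-loop-helix factors. No stretch of the windows printed matched more than 1 of the motifs.
Notch3: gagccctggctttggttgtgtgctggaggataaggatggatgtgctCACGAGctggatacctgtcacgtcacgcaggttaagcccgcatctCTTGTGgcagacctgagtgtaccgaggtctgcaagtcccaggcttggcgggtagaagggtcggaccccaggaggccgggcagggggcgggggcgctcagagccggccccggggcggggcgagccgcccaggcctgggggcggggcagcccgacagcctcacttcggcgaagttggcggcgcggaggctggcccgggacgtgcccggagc
Notch4: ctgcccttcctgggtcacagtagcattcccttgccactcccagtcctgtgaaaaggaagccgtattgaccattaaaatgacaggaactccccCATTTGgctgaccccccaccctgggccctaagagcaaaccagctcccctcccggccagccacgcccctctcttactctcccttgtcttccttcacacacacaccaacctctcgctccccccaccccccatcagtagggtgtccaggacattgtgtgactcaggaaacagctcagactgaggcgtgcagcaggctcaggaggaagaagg
Dll3: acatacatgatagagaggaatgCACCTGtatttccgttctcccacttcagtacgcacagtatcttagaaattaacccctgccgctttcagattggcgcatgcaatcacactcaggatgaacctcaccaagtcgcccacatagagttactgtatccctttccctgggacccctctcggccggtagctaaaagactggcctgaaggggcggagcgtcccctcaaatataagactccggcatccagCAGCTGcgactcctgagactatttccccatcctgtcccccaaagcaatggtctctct
Hes6: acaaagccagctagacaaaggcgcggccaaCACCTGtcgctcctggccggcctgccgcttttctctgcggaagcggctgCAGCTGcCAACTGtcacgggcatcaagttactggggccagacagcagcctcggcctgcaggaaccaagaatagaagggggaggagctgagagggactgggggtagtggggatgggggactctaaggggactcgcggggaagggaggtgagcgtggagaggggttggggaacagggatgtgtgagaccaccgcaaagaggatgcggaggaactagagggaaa

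The Notch3 window lies at chr17:32166841-32167140 on the minus strand and holds N box letters at 2 places, starting at -204 and -159 from the gene start. The Notch4 window, at chr17:34564045-34564344 on the plus strand, holds none of them and a single E box. In the Dll3 window, at chr7:28301736-28302035 on the minus strand, there are 2 E boxes, the nearer one starting at -7. The Hes6 window printed is the one listed first, at chr1:91413989-91414288 on the minus strand, and holds 3 E boxes, of which CAGCTG and CAACTG are 1 base apart. The second Hes6 window, at chr1:91413173-91413472 and not printed, holds 1 E box and N box letters at 2 places, starting at -237 and 16 from its start. Over the 11 windows of these genes, E box letters stood in 7, N box letters in 5 and the RBPJ core in 0. Of all 32851 windows of the same length, 72.3% held an E box, 42.5% an N box and 25.6% the RBPJ core. The 11 windows differ from these in GC content, from 52.0% (Dll3) to 86.0% (Jag2), with a median of 52.7% over all windows. The part of GC content in the motif counts was not tested. A match describes letters in a window and is not a bound site.

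Of the ligands, Jag2, a Jagged family ligand, had the highest level in both groups. Its FPKM was 5.61, 6.36 and 6.48 in the WT libraries and 12.2, 12.3 and 12.3 in the R153A libraries. The groups did not overlap, and the R153A values lay closer together than those of any other ligand. The mean rose from 6.15 ± 0.469 to 12.3 ± 0.0618 FPKM (SD, n = 3), a log2 fold change of 0.89 (standard error 0.0663, adjusted p = 6.39e-07 by limma). Jag1, the other Jagged ligand, measured 1.59, 1.55 and 1.42 FPKM in WT against 2.66, 2.95 and 2.86 in R153A. It too was higher in every R153A library, by 1.86-fold on average, and its log2 fold change of 0.60 (standard error 0.0763, adjusted p = 4.56e-05 by limma) became 0.39 under quantile normalization. The Jag2 level was 3.52 to 4.58 times that of Jag1 in WT and 4.17 to 4.59 times in R153A, ranges that overlap.

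Dll1, a Delta-like ligand that activates Notch on the neighbouring cell, had the largest SD in FPKM (0.609) of the ligands between WT libraries, with 1.29, 0.815 and 2.02 FPKM. In R153A it stood at 2.73, 3.18 and 2.51 FPKM. The highest WT library, replicate 3, remained below the lowest R153A library. Mean FPKM was 2.04-fold higher in R153A, and the log2 fold change was 0.71 (standard error 0.155, adjusted p = 0.00230 by limma). Dll3 is a divergent family member that stays largely inside the cell and is known as an inhibitor of Notch in the same cell. It had the lowest level of the 10 genes in WT, with 0.273, 0.459 and 0.813 FPKM, and reached 3.25, 3.50 and 2.77 FPKM in R153A. No WT library reached 1 FPKM, so its rise decided that it was tested. Mean Dll3 was 6.16-fold higher in R153A, the largest rise by ratio of means among these genes, and its log2 fold change was 1.47 (standard error 0.125, adjusted p = 1.83e-06 by limma), or 2.50 with a pseudocount of 0.1.

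Summed over the 4 ligands, the level was 8.77 to 10.7 FPKM in the WT libraries and 20.4 to 21.9 in the R153A libraries. Jag2 made up 60.4 to 69.3% of that sum in WT and 56.1 to 60.1% in R153A. The share of Dll3 was 3.12 to 7.57% in WT and 13.6 to 15.9% in R153A, without overlap. Dll1 held 8.88 to 18.9% and 12.3 to 14.5%, and Jag1 13.2 to 18.2% and 12.8 to 13.99%, so that for these 2 ligands the shares overlapped between groups while the levels did not. In WT the levels ran from Jag2 through Jag1 and Dll1 to Dll3, with Jag1 and Dll1 overlapping. In R153A, Dll3, Jag1 and Dll1 stood at 3.17, 2.82 and 2.80 FPKM in the mean and overlapped one another.

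**Figure D1:**
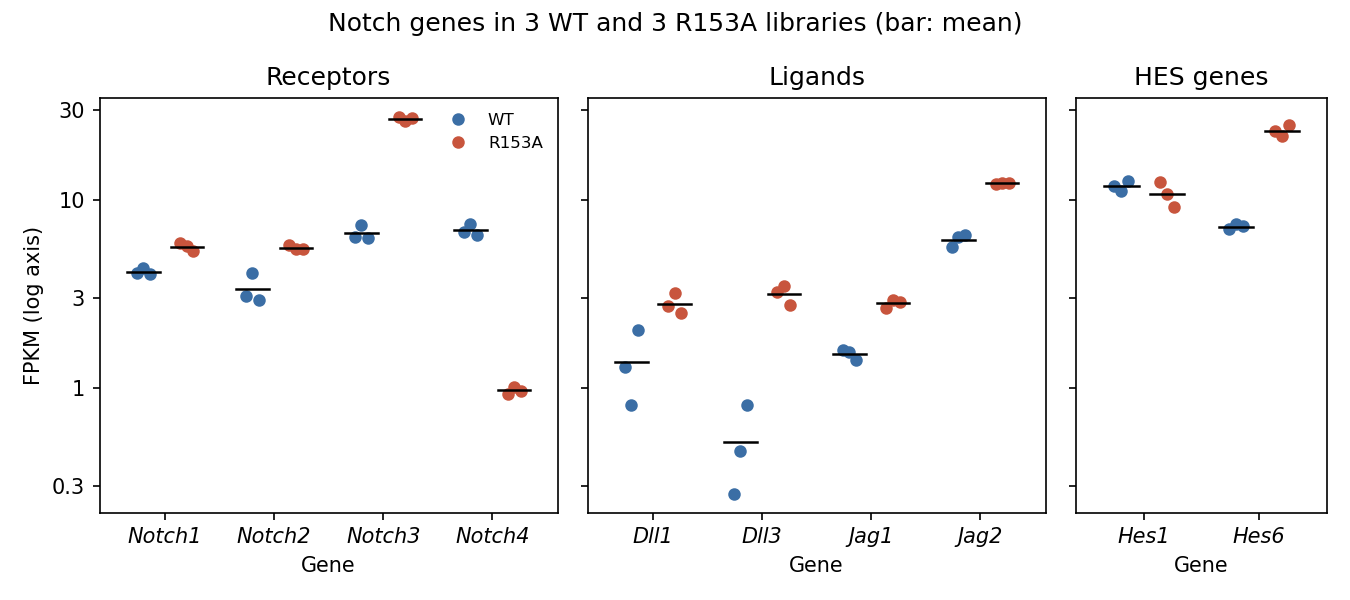
FPKM on a log axis of the 4 receptors, 4 ligands and 2 HES genes in each library, blue for WT and red for R153A, with a bar at the mean of 3. Notch3, Hes6 and all ligands sit higher in R153A, Notch4 falls from about 6.90 to 0.970 FPKM, and only Hes1 overlaps.

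Among the receptors, Notch3 rose most. Its FPKM was 6.35, 7.39 and 6.25 in WT and 27.7, 26.4 and 27.4 in R153A. The R153A libraries lay close together and far above every WT library. The log2 fold change was 1.88 (standard error 0.0673, adjusted p = 2.71e-09 by limma). Notch4, a receptor best known from endothelium, moved the other way, from 6.74, 7.41 and 6.55 FPKM in WT to 0.934, 1.01 and 0.968 in R153A. Its log2 fold change was -2.0 (standard error 0.0751, adjusted p = 3.52e-09 by limma), the largest in size of the 10. The Notch4 libraries of each group lay within 1 FPKM of one another, while the groups were over 5 FPKM apart.

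The broadly expressed receptors Notch1 and Notch2 rose less. Notch1 measured 4.09, 4.33 and 4.02 FPKM in WT, against 5.93, 5.71 and 5.32 in R153A, a 1.36-fold higher mean. The groups were separate, with a log2 fold change of 0.37 (standard error 0.0700, adjusted p = 8.65e-04 by limma), which was 0.23 under quantile normalization and 0.22 after correction for GC content and length. Notch2 measured 3.10, 4.07 and 2.94 FPKM in WT, against 5.79, 5.49 and 5.48 in R153A, a 1.66-fold higher mean. WT replicate 2 lay nearest to the R153A libraries and still below them. The Notch2 log2 fold change of 0.60 (standard error 0.0958, adjusted p = 2.56e-04 by limma) was lost after the GC and length correction, where it was 0.17 with a limma adjusted p = 0.0748. That correction moved the median of all genes from 0.07 to -0.04, and relative to the median Notch2 was at 0.53 before it and at 0.20 after it.

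The make-up of the receptor mRNA thus differed between the groups. In the WT libraries Notch3 held 31.3 to 31.9% and Notch4 31.9 to 33.3% of the summed FPKM of the 4 receptors, and the ratio of Notch3 to Notch4 was 0.942, 0.997 and 0.954. In the R153A libraries Notch3 held 68.4 to 69.9% and Notch4 2.31 to 2.61%, with ratios of 29.7, 26.2 and 28.3. Notch1 went from 18.7 to 20.4% of the sum in WT to 13.6 to 14.8% in R153A, although its level rose, and Notch2 from 14.9 to 17.5% to 13.99 to 14.4%. Summed over the 4 receptors, the level was 19.8 to 23.2 FPKM in WT and 38.6 to 40.4 in R153A. In WT the order of levels was Notch4, Notch3, Notch1 and Notch2, with overlap between the first pair and between the last pair. In R153A it was Notch3, Notch1, Notch2 and Notch4, and Notch1 and Notch2 overlapped. In bulk RNA, fewer cells that express a receptor and less RNA per cell cannot be told apart.

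**Figure D2:**
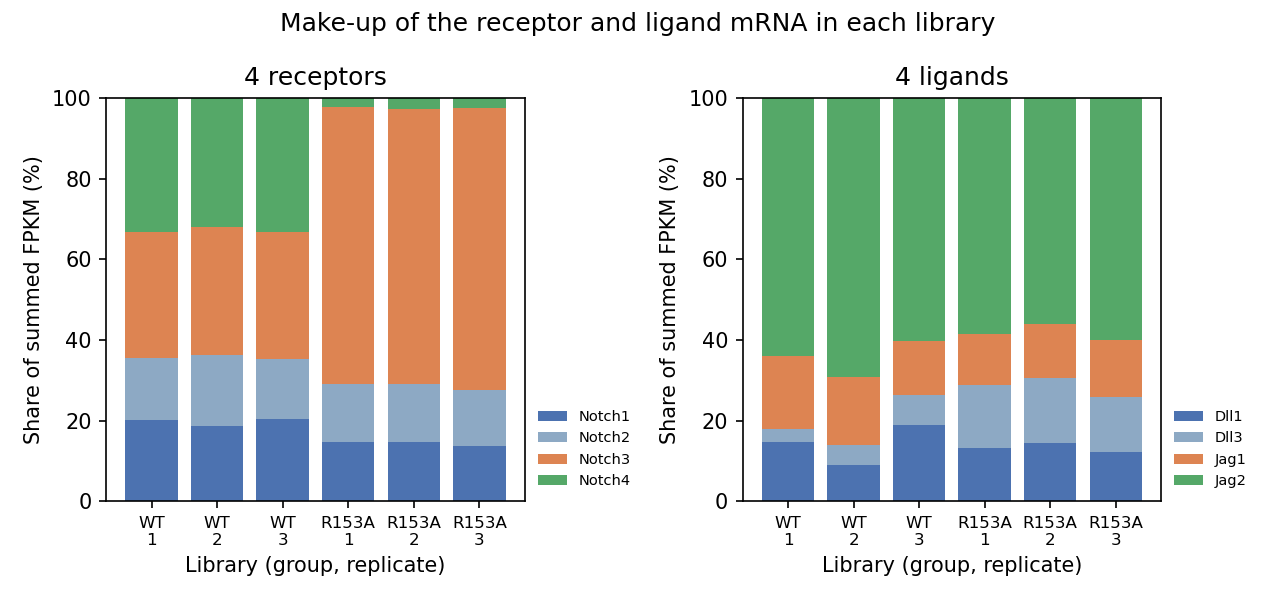
Stacked bars of the percent of summed FPKM that each receptor (left) or ligand (right) made up in each of the 6 libraries. Notch3 grows from under 32% to over 68% of the receptor sum and Notch4 shrinks to under 3%, while Jag2 stays above 56% of the ligand sum in every library.

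Hes1 and Hes6 belong to the same family and differ in role. HES1 is a repressor induced by Notch, and HES6 is known to oppose HES1 and to be induced by proneural factors instead. Hes1 measured 11.9, 11.2 and 12.6 FPKM in WT, against 12.4, 10.8 and 9.13 in R153A. The groups overlapped, and R153A replicate 1 lay above 2 of the 3 WT libraries. Its log2 fold change was -0.14 (standard error 0.0935, adjusted p = 0.219 by limma). It was called lower without R153A replicate 1 (-0.24, limma adjusted p = 0.0401) and lay at -0.036 without R153A replicate 3 (limma adjusted p = 0.741), so single libraries decide its value. Median-ratio scaling and quantile normalization gave Hes1 -0.22 and -0.23 (limma adjusted p = 0.0857 and 0.0740). Hes6 measured 7.02, 7.41 and 7.23 FPKM in WT, against 23.2, 21.8 and 25.0 in R153A, with a wide gap between groups. The log2 fold change of Hes6 was 1.56 (standard error 0.0631, adjusted p = 5.87e-09 by limma). Hes6 was lower than Hes1 in every WT library, at 0.574 to 0.660 times its level, and higher than Hes1 in every R153A library, at 1.87 to 2.74 times.

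**Figure D3:**
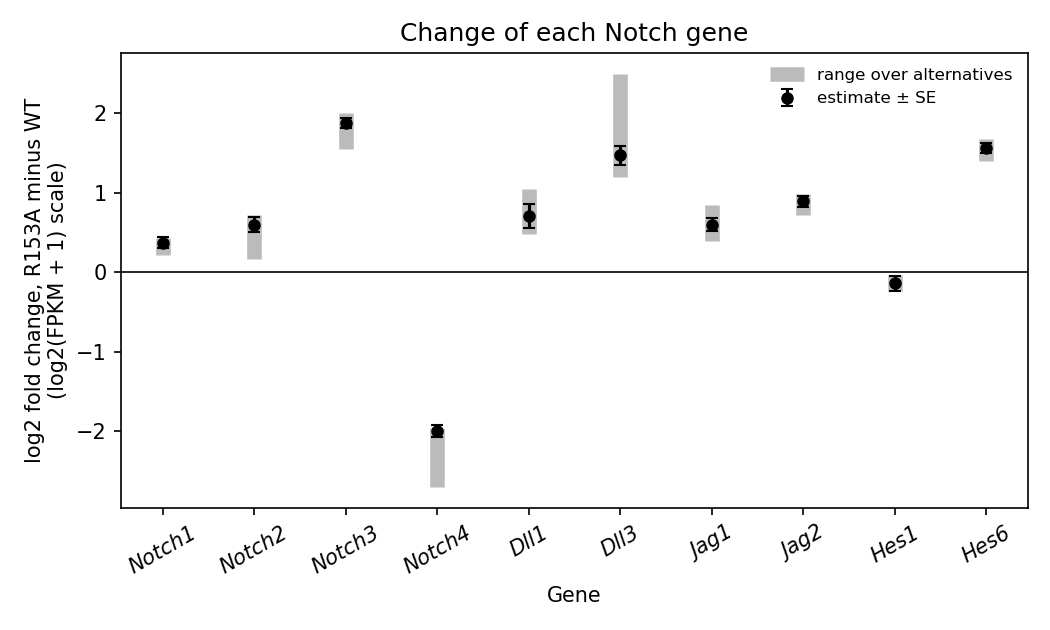
Log2 fold change of each gene, R153A minus WT on the log2(FPKM + 1) scale, as a point with its SE, over a grey bar for the range of the alternatives. Bars stay on one side of 0 for all 10 genes, and that of Hes1 ends at -0.036.

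The genes most like the extremes in profile were found by the Euclidean distance between log2(FPKM + 1) values, each centred on its mean over the 6 libraries. Only genes tested were searched. Symbols of Gm plus digits, symbols ending in Rik, clone codes and the like were left out, so a gene left out may lie nearer. With 2 groups, such a distance mostly reads the size of the group difference, and the added 1 compresses values under 1 FPKM. Nearest to Notch3 were Ptpn14 (distance 0.0903), Scarf2 (0.0904) and Gja1 (0.0946). Mean FPKM went from 3.29 to 15.3 for Ptpn14 and from 22.5 to 85.5 for Gja1, the gap junction gene of connexin 43. For Scarf2 it went from 0.201 to 3.42, a larger ratio than that of Notch3. Scarf2 passed the filter only through R153A, so its rise decided that it was searched. Nearest to Notch4 were Tfcp2l1 (0.0922), Arl14epl (0.113) and Tbx3 (0.119). Tfcp2l1 and Tbx3 encode transcription factors of naive pluripotency, and Tbx3 went from 19.0 to 4.17 FPKM.

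Other genes of the pathway were taken from 9 lists that hold 109 genes besides the 10. Of these, 71 were tested, 38 rose, 13 fell and 20 did not pass, a few genes standing in 2 lists. Over all genes tested, 37.5% were called higher and 22.3% lower. Those shares stand beside this count and the count of each list below, so a call in a list is common. Among other ligands and ligand-like proteins, 3 of 8 were tested, with 2 higher and 1 lower. Dlk1, an imprinted Delta-like protein without the usual Notch-binding domain, went from 0.109 ± 0.0155 to 1.52 ± 0.166 FPKM (log2 fold change 1.19), and the microfibril gene Mfap2 from 0.191 ± 0.0231 to 1.54 ± 0.283 FPKM (1.09). Neither reached 1 FPKM in any WT library, so both were tested through R153A alone, and with a pseudocount of 0.1 their log2 fold changes were 2.96 and 2.48. Mfap5 was called lower (1.61 ± 0.210 to 1.09 ± 0.37 FPKM, limma adjusted p = 0.0354), but its groups overlapped and the call ended in 5 of 16 alternatives, namely with no filter on low values (limma adjusted p = 0.113) and on leaving out R153A replicate 1 (limma adjusted p = 0.141), R153A replicate 3 (0.0663), WT replicate 2 (0.131) or WT replicate 3 (0.0665). Dll4, the remaining Delta-like activator of Notch, was at or under 0.144 FPKM in every library and was not tested.

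Of 8 genes of receptor maturation, 3 rose, 2 fell and 3 did not pass. Fringe enzymes add a sugar to Notch that shifts its preference towards Delta-like ligands, and 2 of them moved apart. Lfng measured 2.00, 1.95 and 2.17 FPKM in WT, against 5.77, 5.16 and 5.67 in R153A, while Mfng measured 5.02, 6.07 and 6.17 in WT, against 2.92, 3.44 and 3.32 in R153A. Neither gene overlapped between groups (log2 fold changes 1.10 and -0.67, limma adjusted p = 2.94e-07 and 5.84e-05), and the ratio of Lfng to Mfng was 0.322 to 0.398 in WT and 1.5 to 1.98 in R153A. Furin, the convertase of the receptor precursor, rose from 5.67 ± 0.530 to 9.08 ± 0.742 FPKM, with a log2 fold change of 0.60 that was 0.34 after the GC and length correction. Eogt, which adds another sugar to the receptor's EGF repeats, rose from 1.57 ± 0.0687 to 2.43 ± 0.391 FPKM, a call that ended under quantile normalization (limma adjusted p = 0.0952). The other call was Poglut1, a glucosyltransferase of the same repeats, which fell from 17.9 ± 1.01 to 14.2 ± 1.21 FPKM.

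Of 9 genes of receptor cleavage, 7 were tested, with 4 higher, 0 lower and 3 not called. Ncstn, Psen2 and Psenen encode subunits of gamma-secretase. Ncstn rose from 14.3 ± 0.949 to 19.6 ± 0.332 FPKM and Psen2 from 5.10 ± 0.207 to 7.11 ± 0.169. Psenen rose from 25.9 ± 1.73 to 29.8 ± 0.905 FPKM, a call that ended in 4 of 17 alternatives, with limma adjusted p = 0.0771 under median-ratio scaling, 0.0532 without R153A replicate 1, 0.0518 without R153A replicate 3 and 0.0531 without WT replicate 1. The proteases Adam10 and Adam17 did not pass (limma adjusted p = 0.199 and 0.50).

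Among 18 ubiquitin ligases and trafficking genes, 17 were tested, 11 rose, 2 fell and 4 did not pass. Mib1 and Mib2 encode ligases that mark Notch ligands for the endocytosis that activates the receptor. Mib2 fell from 17.4 ± 0.565 to 8.12 ± 0.191 FPKM (log2 fold change -1.01, limma adjusted p = 6.57e-08), and Mib1 rose from 9.32 ± 0.681 to 12.8 ± 0.145 FPKM (0.42, limma adjusted p = 1.73e-04). Mib1 lay outside the rule for naming and was chosen after its values were seen, as the partner of Mib2. The Deltex genes Dtx3l, Dtx4 and Dtx3 rose, Dtx3l from 1.30 ± 0.295 to 5.53 ± 0.396 FPKM, Dtx4 from 0.726 ± 0.0741 to 2.01 ± 0.149 and Dtx3 from 12.9 ± 1.77 to 21.3 ± 1.89. Dtx4 passed the filter only through R153A, and its log2 fold change of 0.80 was 0.45 after the GC and length correction and 1.35 with a pseudocount of 0.1. Dtx1, a Deltex gene also known as a Notch target, fell from 6.22 ± 0.622 to 4.79 ± 0.369 FPKM (log2 fold change -0.32, and -0.55 after the GC and length correction).

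In the nuclear complex all 7 tested genes of 9 were called, 4 higher and 3 lower, beside 59.8% called of all genes tested. Rbpj, the DNA-binding partner of every Notch receptor, measured 53.2, 57.1 and 51.6 FPKM in WT, against 25.6, 27.5 and 25.7 in R153A. Its mean was 2.05-fold lower in R153A, with no overlap, and its log2 fold change was -1.01 (standard error 0.0548, adjusted p = 5.48e-08 by limma). The Mastermind coactivator gene Maml1 rose from 4.74 ± 0.572 to 8.15 ± 0.329 FPKM, with a log2 fold change of 0.68 that was 0.27 after the GC and length correction (limma adjusted p = 0.0111). Maml3 went from 0.141 ± 0.0523 to 1.07 ± 0.0615 FPKM and passed the filter only through R153A. Its log2 fold change of 0.86 ranged with the setting, from 0.52 after the GC and length correction to 2.3 with a pseudocount of 0.1. Kat2b, an acetyltransferase, fell from 7.35 ± 0.207 to 5.11 ± 0.282 FPKM.

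Of 19 corepressor genes 17 were tested, 5 rose, 5 fell and 7 did not pass. Aes, a short Groucho family protein that lacks the repression domains of the long forms, fell most, from 109, 107 and 115 FPKM in WT to 28.1, 29.4 and 27.5 in R153A (log2 fold change -1.92, SE 0.0493, limma adjusted p = 3.29e-10). Tle6, another Groucho gene, fell from 5.08 ± 0.541 to 3.04 ± 0.732 FPKM. L3mbtl3, which binds RBPJ and represses its targets, rose from 1.29 ± 0.0792 to 4.17 ± 0.798 FPKM (1.17). The corepressor gene Ctbp1 rose from 26.1 ± 0.874 to 35.1 ± 0.585 FPKM.

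Of 14 other HES, HEY and target genes only 5 were tested, with 3 higher, 1 (Dtx1) lower and 1 not called. Nrarp, a target that feeds back on the Notch complex, measured 0.843, 0.996 and 1.10 FPKM in WT, against 2.31, 1.89 and 1.87 in R153A. Its groups were separate, with a log2 fold change of 0.61 (standard error 0.0901, adjusted p = 1.44e-04 by limma), 0.38 under quantile normalization and 0.98 with a pseudocount of 0.1. The basic helix-loop-helix repressors Bhlhe40 and Bhlhe41 rose. Bhlhe40 went from 20.5 ± 1.27 to 29.98 ± 0.239 FPKM, and Bhlhe41, which passed the filter only through R153A, from 0.573 ± 0.0466 to 1.82 ± 0.169. For Bhlhe41 the log2 fold change of 0.84 was 0.54 under quantile normalization and 1.51 with a pseudocount of 0.1. Hey1, a Notch target of the HEY family, averaged 1.85 ± 0.295 FPKM in WT against 1.95 ± 0.156 in R153A (limma adjusted p = 0.649). Hes5, a neural Notch target, was at or under 0.202 FPKM in every library.

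Of 13 proneural and E protein genes, 4 were tested, with 3 higher and 1, Tcf3, not called (limma adjusted p = 0.546). Ascl2, an achaete-scute factor, rose from 2.27 ± 0.283 to 7.99 ± 0.795 FPKM (log2 fold change 1.46, limma adjusted p = 1.60e-07). Tcf12 and Tcf4, which encode E proteins that pair with such factors, both rose, Tcf12 from 7.36 ± 0.907 to 12.2 ± 0.578 FPKM and Tcf4 from 2.07 ± 0.221 to 3.08 ± 0.244. The Tcf4 log2 fold change of 0.41 was 0.21 under quantile normalization (limma adjusted p = 0.0490).

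Of 15 genes of the segmentation clock and presomitic mesoderm, 6 were tested, with 5 higher and 1 not called. The 5 were Lfng and Nrarp, described above, and Fgf8, T and Axin2, which passed the filter only through R153A. Axin2, a feedback gene of WNT signalling, went from 0.805 ± 0.0128 to 4.37 ± 0.284 FPKM (log2 fold change 1.57, limma adjusted p = 2.28e-08). Fgf8 and T had log2 fold changes of 2.34 and 2.21 (4.3 and 4.33 with a pseudocount of 0.1). The clock gene Hes7 was at or under 0.444 FPKM in every library.

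**Figure D4:**
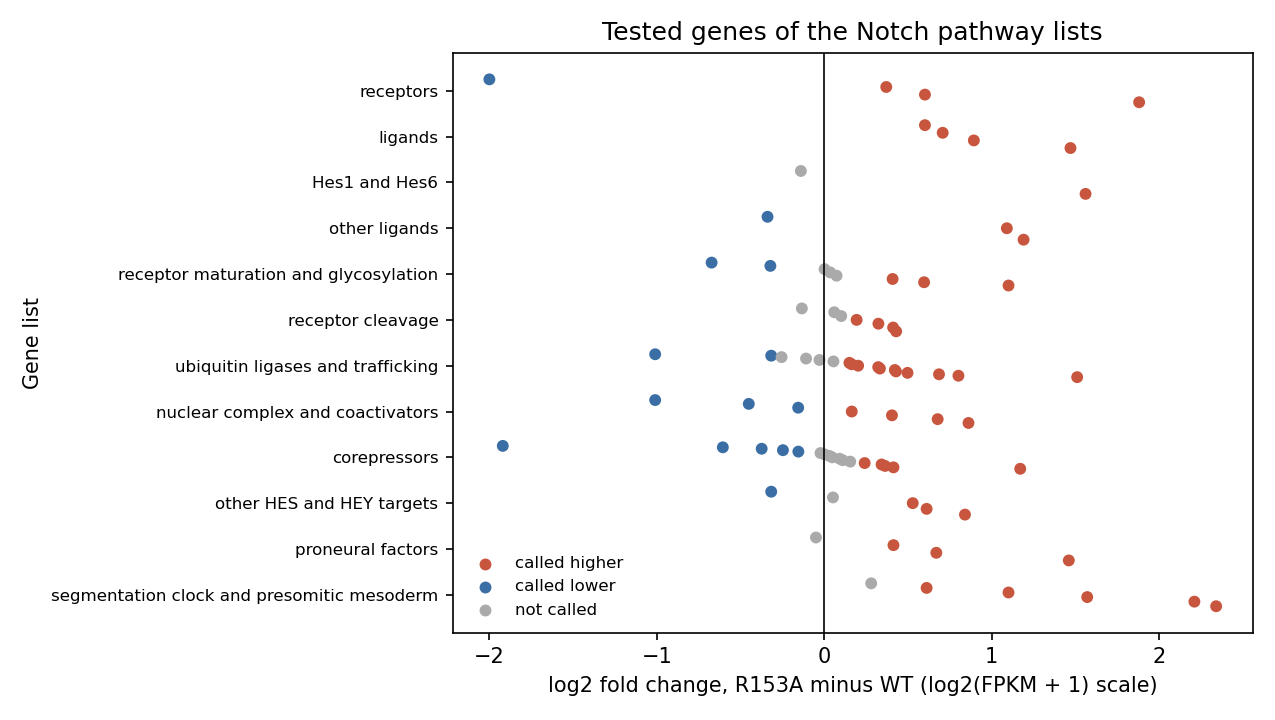
Log2 fold change, R153A minus WT on the log2(FPKM + 1) scale, of each tested gene in the 3 member groups and the 9 other lists, red where called higher, blue where called lower and grey where not called. Notch4 (-2.0) and Aes (-1.92) lie farthest to the left. Dll1, Dll3, Jag1 and Jag2 all lie to the right of 0, and of the other ligands Mfap5 lies to the left (-0.339).

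The 10 stem cell markers all reached 1 FPKM in every library, and 1 rose, 7 fell and 2 did not pass, beside 22.3% called lower of all genes tested. By log2 fold change, the lower ones were Esrrb (-2.12), Fgf4 (-1.71), Dppa5a (-1.45), Sox2 (-1.3), Utf1 (-0.73), Zfp42 (-0.67) and Dppa3 (-0.16). Lin28a was the higher one (1.17), and Tdgf1 and Sall4 did not pass. Markers of other cell types moved with the Notch genes in part. The summed FPKM of 10 presomitic mesoderm markers was 1.17 to 1.47 in WT and 3.61 to 4.01 in R153A, with Ripply2 listed at 0 in all libraries. The 1 presomitic marker tested, Cdx4, was higher and passed the filter only through R153A (mean FPKM 0.0535 in WT and 1.82 in R153A). It had the highest mean of these markers in R153A. Of the untested ones, Tbx6 (0.47 and 0.62), Msgn1 (0.081 and 0.087), Meox1 (0.041 and 0.024), Foxc2 (0.076 and 0.074) and Uncx overlapped between groups. Mesp2 (0.556 and 0.689), Hes7 (0.0125 and 0.257) and Pcdh8 (0.073 and 0.177) were higher in every R153A library than in any WT library. For 10 endothelial markers the sum was 12.0 to 15.6 in WT and 19.5 to 20.5 in R153A, and most of it was Egfl7 (mean FPKM 10.7 and 14.5). Flt1 (0.207 and 3.73) had the next highest mean in R153A, while in WT its mean lay below those of Esam, Tek and Vwf. Egfl7 and Flt1 were the endothelial markers tested and both were higher, Flt1 having passed the filter only through R153A. Of the untested ones, Vwf (0.674 and 0.263), Esam (1.09 and 0.550), Tek (0.772 and 0.641) and Sox17 (0.0604 and 0.0141) had lower values in every R153A library than in any WT library, as Notch4 did, and Tie1 (0.0452 and 0.331) had higher ones. The defining endothelial genes Cdh5 and Kdr were at or under 0.0798 and 0.0443 FPKM and Emcn was listed at 0 in every library. Over 10 neural markers the sum was 129 to 137 in WT and 83.4 to 84.2 in R153A. Most of it was Stmn2 (mean FPKM 71.85 and 40.7) and Tubb3 (48.3 and 15.3). Of 6 tested, 1 was higher (Nes, 3.99 and 23.3), 4 were lower and 1 was not called. Among the lower ones, Ncam1 passed the filter only through WT. The neural factor Sox1 was at or under 0.303 FPKM and higher in every R153A library than in any WT library, while Pax6 (0.756 and 0.151) was lower. The 10 fibroblast and feeder markers summed to 6.82 to 9.07 in WT and 11.2 to 12.2 in R153A, with 2 of 4 tested higher (Col1a1 and Col1a2), 2 not passing and Lum listed at 0 in WT. Col1a2 passed the filter only through R153A. Col3a1 (0.060 and 0.316), Col6a1 (0.159 and 1.015), Dcn (0.042 and 0.241) and Pdgfrb (0.112 and 0.237) were not tested. Their values were higher in every R153A library than in any WT library, while untested Lum and Postn overlapped. The part of these markers in the Notch results was not tested.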

How the data were processed

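The authors deposited 1 table of FPKM values, 1 column per library, with 24083 gene symbols. The submitters' processing notes name edgeR 3.26.8, HTSeq 0.11.2, SAMtools 1.9, Bowtie2 2.3.4.3 and build mm9. Which tool made the FPKM, from which annotation, with what filters and with or without strand is not given in the sources used here. FPKM sums were 360152 to 382086 per library. Ratios of low values did not recur between libraries (the commonest, to 3 decimals of log2, covered at most 0.855%), so whole reads were not recovered, depth is unknown and no count test was run. Pearson correlations of log2(FPKM + 1) over genes, which are not independent replicates, were 0.995 to 0.997 within and 0.947 to 0.950 between groups.

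Values were used unscaled as log2(FPKM + 1) for genes with at least 1 FPKM in 3 of 6 libraries, and tested with limma 3.58.1 in R 4.3.3 (trend, moderated variances, 2-sided, Benjamini-Hochberg over 11817 genes), after a check on simulated data. An exact permutation test of 3 against 3 libraries cannot go below p = 0.1 and was not used. Ratios of means are given only where every library reached 0.1 FPKM. Alternatives were pseudocounts, filters, scalings, a loess correction on GC content and length (GENCODE M21, 95.8% of genes matched by symbol), limma settings, a replicate block and leaving out each library. The members, lists and alternatives were chosen with earlier results of these data known. Named were the 10 genes, up to 4 called genes of each pathway list by size of change, and the 3 nearest profiles. Some genes of the lists are counted and not reported here by name. Genes named beside these, such as Mib1, Poglut1, Adam10, Adam17, Dll4, Hey1, Hes5, Hes7, Tcf3 and the markers, were chosen after their values were seen. Figures were drawn with matplotlib 3.10.9 in Python 3.11.15.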

Additional observations from a re-analysis of the deposited data

How the results depend on the processing

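Over 16 or 17 alternatives each, Notch1, Notch3, Notch4, Dll1, Dll3, Jag1, Jag2 and Hes6 kept their direction and their call wherever they were tested (Dll1, Dll3 and Jag1 were not under a filter of 5 FPKM). Notch2 was not called after the GC and length correction (log2 fold change 0.17, limma adjusted p = 0.0748). Hes1 lay between -0.24 and -0.036 on leaving out 1 library and was called without R153A replicate 1 (limma adjusted p = 0.0401), so 1 to 2 of the genes were called lower and 8 higher in those fits. A filter of 5 FPKM left 5 of the 10 called higher and 2901 of all genes called higher, since fewer were tested. Over all genes, 62.7% of calls were higher, against 50.7% under median-ratio scaling and 47.4% under quantile normalization. The GC and length correction gave 44.9%, with 4058 genes called lower against 2634. The cause was not tested. Deviations of same-numbered libraries correlated at -0.0487, -0.00946 and 0.060, within the range of differently numbered ones (-0.0539 to 0.0771). Such correlations cannot show that the libraries were unpaired. With a replicate block 6876 genes were called against 7062, with the same calls for all 10 Notch genes. Depth is unknown, which limits what can be said of genes near 0 FPKM.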
